A study of Rattus norvegicus with 24 samples.

Results

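LPS-lowered genes were defined here as genes whose microglial expression fell after a lipopolysaccharide (LPS) injection in rat pups kept in normoxia (Nx), in males and in females alike. There were 149 such genes among the 32754 genes counted. To choose them, counts were expressed as CPM (the count of a gene per 1000000 gene counts of the library), and the log2 ratio of mean CPM + 1 in Nx LPS over mean CPM + 1 in Nx was taken in each sex. Genes at or under -0.8 in both sexes with a mean of at least 5 CPM in both Nx groups were kept. Of 150 genes that met these thresholds, 1 was left out by its identifier, and none of them was a gene that the study lists by name. The 149 genes were 1.57% of the 9490 genes with at least 5 CPM in both Nx groups.

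Sprague-Dawley rat pups of both sexes were exposed with their dams to Nx (21% O2) or to intermittent hypoxia (IH, cycles of 2 min between 10.5% and 21% O2), 8 h per day for 8 days. At postnatal day 9, 16 h after the last exposure, they were injected intraperitoneally with vehicle or LPS, and microglia were isolated 3 h later with magnetic beads against CD11b. The LPS dose was 0.1 mg/kg in the series description, while the sample labels give 0.1 mg/mL. The 24 RNA libraries formed 8 groups of 3 biological replicates, namely male and female Nx, Nx LPS, IH and IH LPS, where Nx and IH alone stand for vehicle. CD11b is also carried by other myeloid cells, so a selection on it does not separate microglia from monocytes or macrophages. The paper gives the antibody target as CD11b/c and states, citing earlier work, that most cells isolated this way were microglia.

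Microglia are macrophages that live in the brain tissue, where they survey neurons and respond to infection. LPS, a component of the bacterial outer membrane, is sensed through Toll-like receptor 4 and drives NF-κB and interferon signaling, which raises cytokine and chemokine genes. In the same response many genes of resting, surveying microglia are transcribed less or their transcripts are lost. In bulk RNA a lower level cannot be separated into fewer cells of a type and less RNA per cell.

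The question was whether the fall with LPS was also present after IH, in 12 libraries that had no part in the choice of the genes. The genes were chosen by their levels in the Nx and Nx LPS libraries, so Nx values are given as a description, without a test. The count tables carry Ensembl identifiers, and the reference tables matched 0 of them to a symbol. The LPS-lowered genes are therefore described by their values, with identifiers for 4 of them and no account of their functions, and the microglial label was not checked against marker genes.

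Library totals lay between 6624453 and 8548714 counts, so 1 CPM stood for fewer than 9 counts. LPS libraries differed in how strongly they responded. Cxcl10, an interferon-responsive chemokine gene that is not among the LPS-lowered genes, was at 4.23 to 14.6 CPM in all 12 vehicle libraries. It was at 1185, 993 and 21.2 CPM in male IH LPS and at 691, 457 and 1593 CPM in female IH LPS. Male IH LPS replicate 3 was thus close to the vehicle libraries for this gene, and the main counts and medians that rest on it are also given without it. Among the libraries that chose the genes, male Nx LPS had 2623, 124 and 2972 CPM, and female Nx LPS had 1942, 1798 and 2214 CPM.

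In IH, all 149 LPS-lowered genes had a log2 fold change below 0 with LPS when the sexes were pooled, against 50.8% of the 12860 genes tested. Their median log2 fold change was -0.74, with quartiles of -0.98 and -0.55, whereas the median of all tested genes was -0.01. The genes thus fell to a smaller share of the library while the bulk of genes stayed near 0. In the edgeR quasi-likelihood test with Benjamini-Hochberg adjustment over all tested genes, 66 of the 149 fell (FDR below 0.05) and 0 rose. The background for a fall by that rule was 1.56% of tested genes, or 1.76% of those with at least 5 CPM in both Nx groups, and for a rise it was 4.26%. At an unadjusted p below 0.05, 123 of the 149 were lower, against 8.66% of tested genes, and 0 were higher. The log2 fold change was -1 or less for 37 genes and weaker than -0.5 for 24. Without male IH LPS replicate 3 these counts were 56 and 17. The shares of all tested genes at these sizes were not computed. All tested genes had quartiles of -0.20 and 0.18 in the full set, and of -0.24 and 0.20 without male IH LPS replicate 3. Of the 149 genes, 134 were then lower at an unadjusted p below 0.05, against 13.1% of tested genes.

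**Figure D1:**
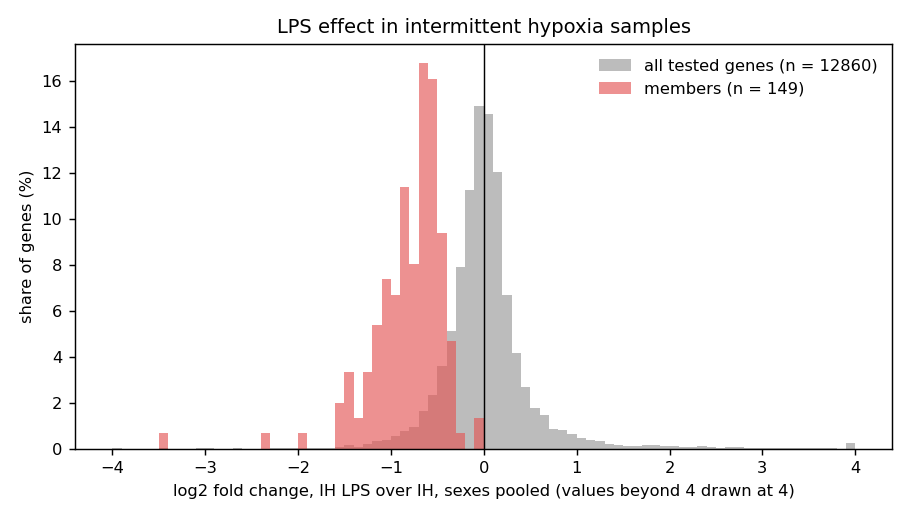
Distribution of log2 fold changes, IH LPS over IH with the sexes pooled (x axis), as a share of genes in percent (y axis), for the 149 LPS-lowered genes (red) and all 12860 tested genes (gray). The gray distribution centers near 0, and the red one lies below 0 throughout with a median of -0.74.

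How many genes passed the test depended on single libraries. Without male IH LPS replicate 3 the pooled count was 113, with a background of 5.43% and a median log2 fold change of -0.87. The count fell to 28 without female IH LPS replicate 1, to 38 without female IH LPS replicate 3 and to 43 without male IH LPS replicate 1, where 0.467%, 0.809% and 0.871% of all tested genes were called lower. Leaving out male IH replicate 1, 2 or 3 gave 36, 31 and 41, with 0.622%, 0.513% and 0.902% of all tested genes, and leaving out female IH replicate 1 or 2 gave 36 and 36, with 0.677% and 0.607%. Calls over all genes thus dropped together with those among the LPS-lowered genes. The direction depended on them far less, since 146 to 149 genes stayed below 0 whichever of the 12 libraries was left out.

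Each library could be set against the vehicle mean of its own sex and oxygen group on the log2(CPM + 1) scale. In male IH LPS, the median difference over the 149 genes was -1.14, -0.74 and -0.42 in replicates 1, 2 and 3, with 147, 141 and 123 genes below the vehicle mean. In female IH LPS it was -1.06, -0.60 and -1.03, with 146, 141 and 149 genes below. In each sex, the IH LPS library with the least Cxcl10 was the one with the smallest median difference. The Nx LPS libraries that chose the genes gave -1.23, -0.62 and -1.32 in males and -1.08, -1.18 and -1.26 in females, where the weakest male library had the least Cxcl10 of its group and the weakest female library did not. In the 12 vehicle libraries the median differences lay between -0.17 and 0.06. The part that the strength of the response in each library had in the fold changes was not tested.

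**Figure D2:**
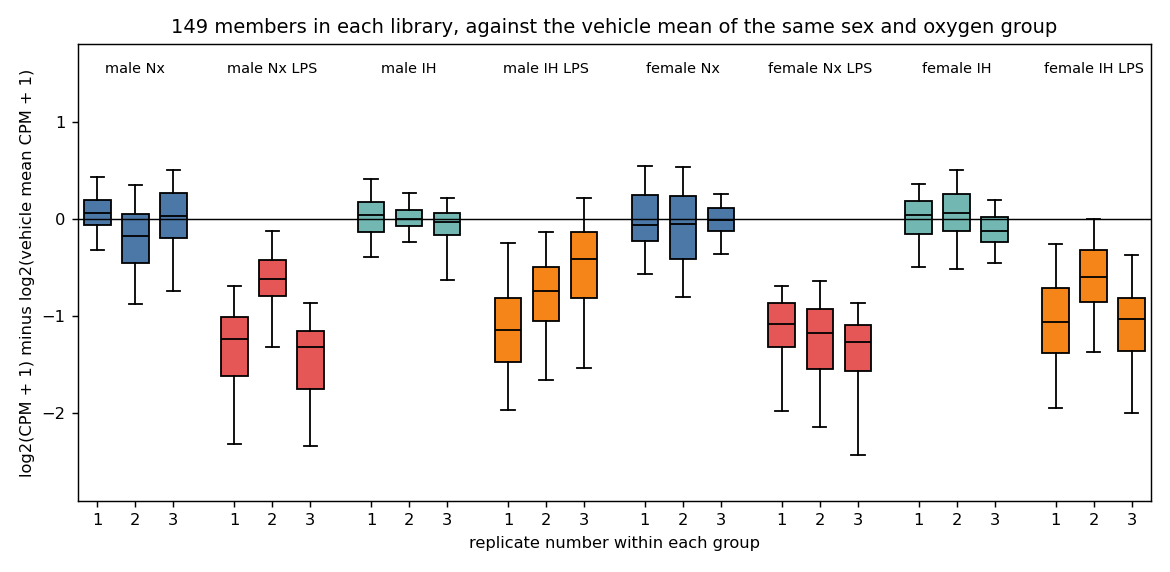
Difference of each LPS-lowered gene from the vehicle mean of the same sex and oxygen group, in log2(CPM + 1) (y axis), for each of the 24 libraries (x axis, replicate number within the group named above). Boxes span the quartiles of the 149 genes with a line at the median, and whiskers run from the 5th to the 95th percentile; all 12 LPS libraries have medians below every vehicle library.

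**Figure D3:**
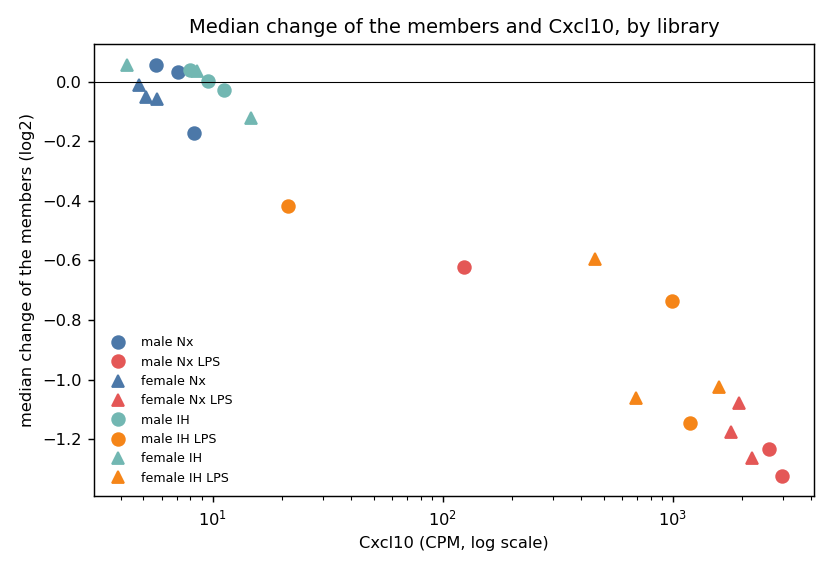
Median difference of the 149 genes from the vehicle mean (y axis, log2 scale) against Cxcl10 (x axis, CPM on a log scale), with 1 point per library, circles for males and triangles for females. Male IH LPS replicate 3, at 21.2 CPM, and male Nx LPS replicate 2, at 124 CPM, lie between the vehicle libraries and most LPS libraries.

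Together the 149 genes took 1.01% of all counts in male IH libraries (0.949 to 1.07%, n = 3) and 0.609% in male IH LPS libraries (0.493 to 0.774%, n = 3). In females they took 1.12% in IH (1.03 to 1.19%, n = 3) and 0.62% in IH LPS (0.551 to 0.75%, n = 3). Without replicate 3, male IH LPS was at 0.526% (0.493 and 0.559%, n = 2). The ranges of vehicle and LPS did not overlap in either sex. Nx libraries of the same sex, which chose the genes, had 1.01% without and 0.472% with LPS in males and 1.12% without and 0.483% with LPS in females.

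Taken apart, the sexes gave the same direction with fewer calls. In males, 147 of the 149 genes were below 0 in IH, against 50.5% of tested genes, with a median log2 fold change of -0.63. Only 2 genes fell by the edgeR quasi-likelihood test at an FDR below 0.05, with a background of 0.0233%, or 3 genes in all. At an unadjusted p under 0.05 there were 68 with a fall, against 2.89% of tested genes. Without male IH LPS replicate 3 the male median was -0.96 and 44 genes fell, with a background of 1.1%, and 114 had a fall at an unadjusted p under 0.05, against 9.72%. That last count was 40 without male IH LPS replicate 1, against 2.37%, and 45 without male IH replicate 1, against 1.7%. The count at an FDR below 0.05 was 0 with any other of the 6 male libraries left out, with 0 to 2 calls over all tested genes. Leaving out female IH replicate 1 or 3 gave 1, of 2 over all tested genes, by the same FDR, and leaving out female IH LPS replicate 2 gave 4 of 6.

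In females, 147 of the 149 genes were likewise below 0, against 49.6% of tested genes, with a median of -0.82. The same test called 26 genes lower, with a background of 0.435%, and an unadjusted p under 0.05 with a fall was found for 95, against 6.2% of tested genes. The female count was 60, with a background of 1.36%, without male IH LPS replicate 3, which enters through the shared estimate of the spread, and 48 without male IH LPS replicate 1, with 0.824% of all tested genes. It was 9, 3 and 17 without female IH replicate 1, 2 or 3, where 13, 4 and 30 of all tested genes were called lower. It was 6 and 6 without female IH LPS replicate 1 or 3, of 6 and 14 over all tested genes, and 16 and 15 without male IH replicate 1 or 2, of 32 and 30. The 2 male and 26 female calls were all among the 66 genes called with the sexes pooled, and 2 genes were called in each sex, with a background of 0.0156%. With male IH LPS replicate 3 left out, 30 were called in each sex, of 50 over all tested genes (0.389%).

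By direction, 145 genes were below 0 in both sexes, against 34.4% of tested genes, and 39 were at or under -0.8 in both, against 1.34%. Every IH LPS library was below every IH library for 92 of the 149 genes in males, with a background of 9.9%, for 111 in females, with a background of 13.6%, and for 72 in both sexes at once, with a background of 3.68%. With male IH LPS replicate 3 left out, and so fewer libraries to overlap, these counts were 128 in males, against 22.4% of tested genes, and 99 in both sexes, against 6.84%. The count at or under -0.8 in both sexes was then 61, against 1.74%. In the full set, the remaining genes had at least 1 overlapping pair of libraries in at least 1 sex.

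The fall did not pass a test of a difference between the sexes. For the interaction (female minus male LPS effect in IH), 0 of the 149 genes passed an FDR below 0.05 in edgeR and 0 in DESeq2, against 0.0% and 0.00778% of tested genes, and 2 genes had an unadjusted p below 0.05, against 1.6%. The fall was larger in females for 107 genes, against 49.8% of tested genes, and the median interaction was -0.23 on the log2 scale. Without male IH LPS replicate 3 that median was 0.13, and 65 genes had the larger fall in females, against 47.4% of tested genes. The count at an unadjusted p below 0.05 moved with single libraries, while 0 passed the FDR in each of these edgeR fits. It was 17 without male IH LPS replicate 1, against 2.85% of tested genes, where the median interaction was -0.38. It was 5 without male IH LPS replicate 2 and 5 without replicate 3, against 1.78% and 4.25%, 6 and 4 without female IH LPS replicate 2 or 3, against 1.94% and 2.36%, and 7 without female IH replicate 3, against 1.64%. It was 3 without male IH replicate 1 or female IH replicate 1, against 1.8% and 1.83%. Leaving out male IH replicate 2 gave 0, against 0.964%, and leaving out male IH replicate 3, female IH replicate 2 or female IH LPS replicate 1 gave 1 each, against 1.17%, 0.894% and 1.54%. The smallest p belonged to a gene at 26.7, 19.6 and 25.4 CPM in male IH and 17.4, 14.4 and 19.3 CPM in male IH LPS. In females the same gene was at 31.3, 39.9 and 37.3 CPM in IH and 16.6, 16.6 and 13.6 CPM in IH LPS. Vehicle and LPS libraries did not overlap in either sex, and the interaction of -0.73 (SE 0.27) had an adjusted p of 0.9998 in edgeR.

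The gene with the smallest p for the pooled fall in IH was ENSRNOG00000002089. It was at 166.5, 145 and 149 CPM in male IH and at 56.9, 68.7 and 83.6 CPM in male IH LPS. In females it was at 181.5, 224 and 150.5 CPM in IH and at 52.4, 71.0 and 61.3 CPM in IH LPS. Every LPS library was well under every vehicle library, and male IH LPS replicate 3 was the highest of the LPS libraries. The pooled log2 fold change was -1.29 (SE 0.14, edgeR adjusted p = 0.000194), with -1.05 in males (SE 0.19, adjusted p = 0.0309) and -1.52 in females (SE 0.19, adjusted p = 0.00193). The difference between the sexes, -0.46 with a range of 2 SE either side from -1.0 to 0.07, did not pass the test.

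The next smallest p belonged to ENSRNOG00000017579, at a similar level. It was at 167, 156 and 163 CPM in male IH and 100.2, 85.6 and 103 CPM in male IH LPS, and at 188, 170.4 and 156 CPM in female IH and 75.1, 98.9 and 70.5 CPM in female IH LPS. The groups did not overlap in either sex, and vehicle replicates of males lay close together. The pooled log2 fold change was -0.84 (SE 0.10, edgeR adjusted p = 0.000496). In males alone it was -0.68 (SE 0.14, adjusted p = 0.0690), above the threshold, and in females alone -1.01 (SE 0.15, adjusted p = 0.00470). With the sexes pooled and in females alone, both genes kept their call whichever of the 12 IH libraries was left out. In males alone, ENSRNOG00000002089 lost its call with any male library other than IH LPS replicate 3 left out, or with female IH replicate 1 left out, with an adjusted p of up to 0.149 in edgeR. ENSRNOG00000017579 passed in males without male IH LPS replicate 3 or without female IH LPS replicate 2, with an adjusted p down to 0.0160 in edgeR.

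At the other end, ENSRNOG00000032922 showed no fall in IH that could be told from 0. It was at 11.95, 9.79 and 9.34 CPM in male IH and 12.9, 12.1 and 5.97 CPM in male IH LPS. In females it was at 9.52, 14.2 and 12.7 CPM in IH and 13.5, 8.39 and 10.9 CPM in IH LPS. The groups overlapped in both sexes. The log2 fold change was -0.01 (SE 0.20, edgeR adjusted p = 0.989), with a range of 2 SE either side from -0.42 to 0.40, and its sign turned under other size factors. In the Nx libraries that chose it, the same gene was at 12.3, 15.5 and 15.8 CPM without and 7.89, 8.46 and 7.36 CPM with LPS in males. It was also among the 3 genes nearest inside the threshold.

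ENSRNOG00000051867 had the next weakest fold change in IH. Its levels were 9.96, 6.37 and 5.10 CPM in male IH and 6.96, 9.80 and 6.20 CPM in male IH LPS. In females they were 15.3, 23.7 and 18.5 CPM in IH and 18.5, 7.06 and 16.1 CPM in IH LPS. The groups overlapped in both sexes, with female IH LPS replicate 2 low among its group. The pooled log2 fold change was -0.10 (SE 0.25, edgeR adjusted p = 0.891), ranging over 2 SE either side from -0.61 to 0.41, and it was above 0 without female IH LPS replicate 2 (0.07) or without male IH replicate 1 (0.06).

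**Figure D4:**
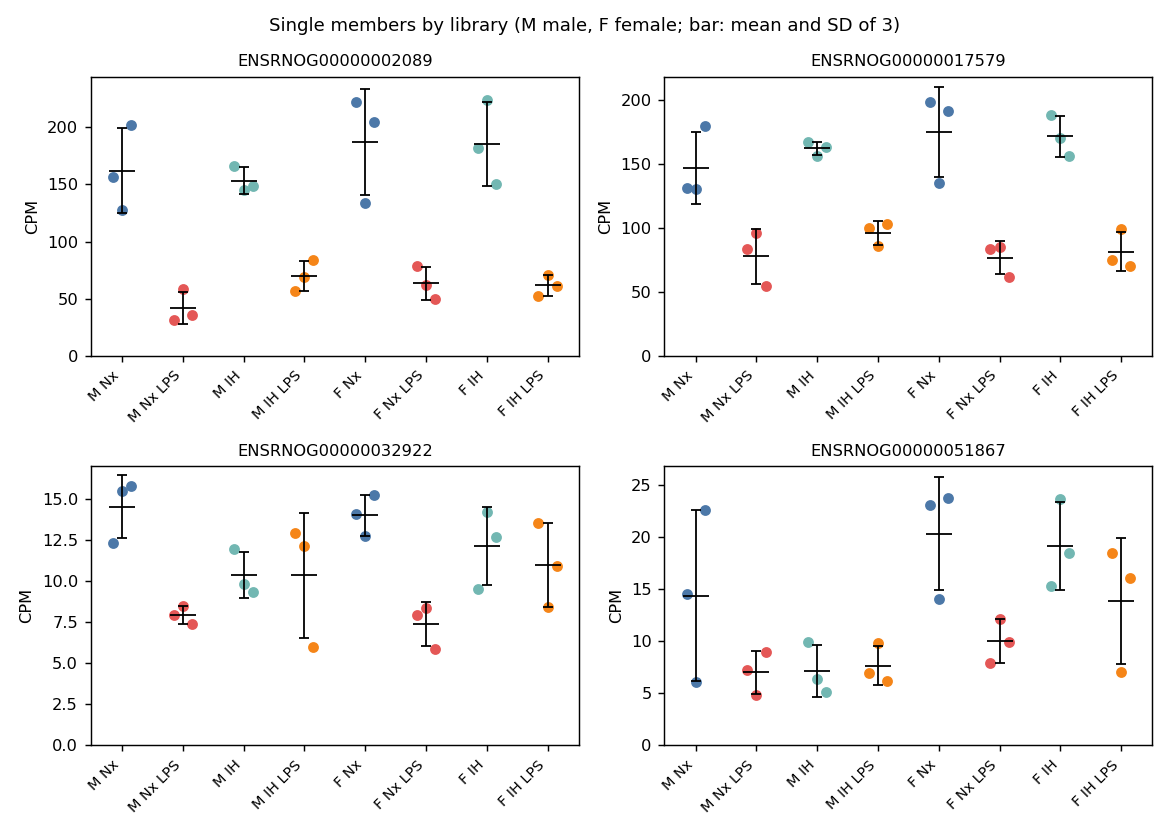
Expression in CPM (y axis) of the 2 LPS-lowered genes with the smallest p in IH (upper row) and the 2 with the weakest fold change in IH (lower row), in each group (x axis, M for male and F for female), with 1 point per library and a bar at the mean with its SD (n = 3). In the upper row all LPS libraries lie under all vehicle libraries of the same sex and oxygen group, and in the lower row IH and IH LPS overlap.

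The largest fall in IH was that of a gene near the lower end of expression, described here after its values were seen. It was at 20.3, 17.5 and 8.59 CPM in male IH and 1.547, 1.5 and 1.99 CPM in male IH LPS. In females it was at 4.18, 17.2 and 7.96 CPM in IH and 0.239, 1.598 and 0.246 CPM in IH LPS, where the lowest libraries held 2 counts each. Vehicle libraries varied severalfold, yet every LPS library was below all of them. The log2 fold change was -3.43 (SE 0.45, edgeR adjusted p = 0.000757), and this gene was the other of the 2 called in each sex. Its male call was lost with any male library other than IH LPS replicate 3, or female IH replicate 3, left out (edgeR adjusted p up to 0.198), and its female call without female IH replicate 2 or female IH LPS replicate 1 or 3 (edgeR adjusted p up to 0.0624).

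The gene with the highest level did not pass the test. It was at 1117, 937 and 611 CPM in male IH and 563, 134 and 505 CPM in male IH LPS, and at 1249.8, 1339 and 945 CPM in female IH and 739, 535 and 700.2 CPM in female IH LPS. Vehicle and LPS libraries did not overlap in either sex, but replicate 2 of male IH LPS was far under the others of its group. Its log2 fold change was -0.91 (SE 0.28, edgeR adjusted p = 0.0784).

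Expression level went with the precision of the estimate. The genes were ranked by mean CPM and cut into 3 parts. In the part with the lowest levels (3.61 to 10.4 CPM, n = 50 genes), the median log2 fold change in IH was -0.87, the median SE was 0.28 and 20 genes were called lower. In the middle part (10.9 to 35.0 CPM, n = 49) the values were -0.69, 0.22 and 18, and in the part with the highest levels (36.0 to 706 CPM, n = 50) they were -0.64, 0.18 and 28. Over all tested genes within the same CPM ranges, 2.47%, 1.81% and 1.48% were called lower from the lowest to the highest range. The most highly expressed part had the smallest SE, and whether its count of calls differed from that of the other parts was not tested. If male IH LPS replicate 3 was left out, the medians were -1.04, -0.82 and -0.83 from the lowest to the highest part, with 33, 34 and 46 calls, against 7.3%, 6.29% and 6.0% of all tested genes in those ranges.

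The spread between replicates was wider with LPS than without in these genes. The median coefficient of variation of the 149 genes was 12.8% in male IH and 38.2% in male IH LPS, and 18.5% in female IH and 28.7% in female IH LPS. Over the 9490 genes with at least 5 CPM in both Nx groups it was 10.5%, 22.2%, 14.3% and 14.99% in the same order. Without replicate 3, male IH LPS was at 25.3% for the 149 genes and 13.4% for the 9490.

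Side by side with the Nx values that chose the genes, the IH values were smaller in size. By the formula of the choice, the median was -0.98 in Nx and -0.67 in IH in males, and -1.15 in Nx and -0.82 in IH in females. The IH value was the smaller fall for 129 genes in males, 122 in females and 108 in both. At or under -0.8 in IH by this formula were 48 genes in males, 75 in females and 36 in both. The shares of all genes were not computed for the counts by this formula, also not with a library left out. By fitted fold changes the count in both was 39, against 0.516% of the 9490 genes with at least 5 CPM in both Nx groups. As a share of the vehicle level, the median gene retained 47.5% of its CPM with LPS in male Nx and 61.3% in male IH, and 41.2% in female Nx and 54.0% in female IH. The male difference was smaller without male IH LPS replicate 3, but a library was then left out on the IH side only. Male Nx LPS replicate 2, at 124 CPM of Cxcl10 and a median difference of -0.62 from vehicle, stayed in the Nx values. The other male LPS libraries had median differences of -1.23 and -1.32 in Nx and of -1.14 and -0.74 in IH. Without male IH LPS replicate 3 the male IH median by the same formula was -0.89, and the median gene retained 50.5% of its CPM. The IH value was then the smaller fall for 92 genes in males and 73 in both sexes. At or under -0.8 were 93 genes in males and 54 in both. Because the genes had to pass a threshold in Nx and not in IH, their Nx values are biased toward larger falls, so these differences were not tested and cannot be told apart from that bias.

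Vehicle and LPS libraries could also be compared across the oxygen groups. On the log2(mean CPM + 1) scale, the median difference of IH from Nx vehicle was -0.01 in males and -0.04 in females. IH LPS differed from Nx LPS by a median of 0.33 in males and 0.26 in females, with 129 and 131 of the 149 genes higher in IH LPS, against 50.7% and 59.8% of the 9490 genes with at least 5 CPM in both Nx groups. Over those 9490 genes, the corresponding IH LPS medians were 0.00 and 0.04. Leaving out male IH LPS replicate 3, with male Nx LPS replicate 2 kept, the male median was 0.10 with 101 genes higher. Over the 9490 genes the median was then 0.01 with 51.2% higher. The same bias of the choice applies here, and Cxcl10 was lower in IH LPS than in Nx LPS in all 3 female libraries.

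Genes with larger falls in Nx tended to have larger falls in IH. Across the 149 genes, the mean of the male and female Nx values had a Pearson r of 0.68 and a Spearman rho of 0.58 with the pooled log2 fold change in IH, and the male and female IH fold changes had an r of 0.61 and a rho of 0.43. When male IH LPS replicate 3 was left out, these were 0.72 and 0.58, and 0.61 and 0.45. These are descriptions across genes measured in the same libraries, which are not independent replicates. Ranked and cut into 3 parts by their Nx values, the genes with the largest Nx falls had a median of -1.0 in IH and 28 calls, the middle part -0.67 and 17 calls, and the part nearest the threshold -0.56 and 21 calls, beside 1.56% of all tested genes. Without male IH LPS replicate 3 the medians were -1.19, -0.87 and -0.74, with 39, 36 and 38 calls, beside 5.43% of all tested genes.

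**Figure D5:**
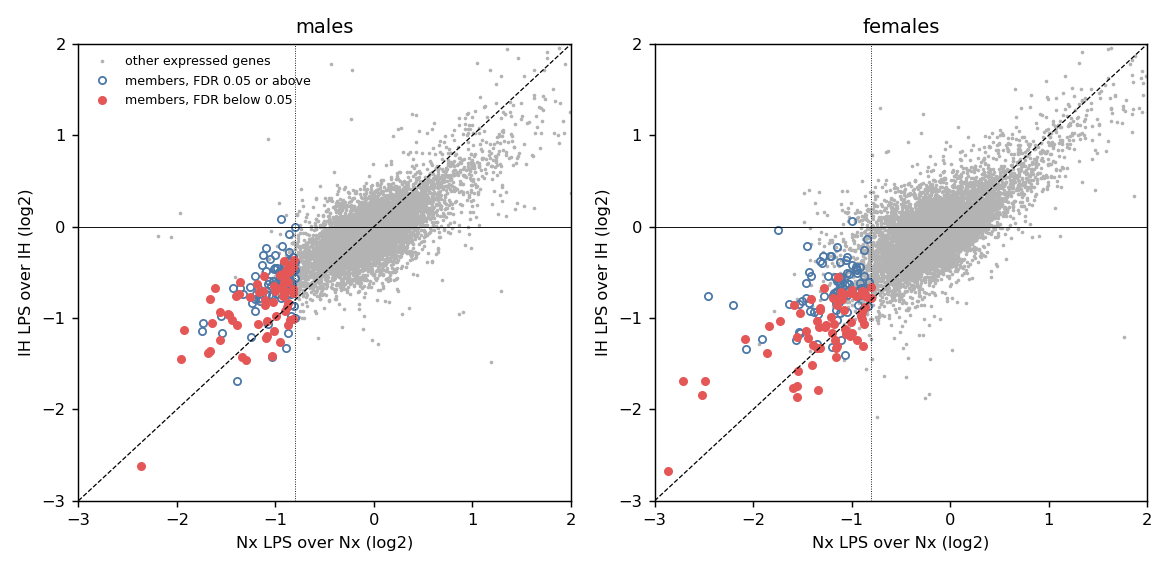
Log2 ratio of mean CPM + 1 with LPS over vehicle in IH (y axis) against the same ratio in Nx (x axis), in males (left) and females (right). Filled red points are the 66 LPS-lowered genes called lower in IH with the sexes pooled, open blue points the other 83, gray points the other genes with at least 5 CPM in both Nx groups; the dotted line is the threshold of -0.8, the dashed line marks equal ratios, and genes beyond the axes are not drawn. Most LPS-lowered genes lie above the dashed line and below 0.

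In IH without LPS, the sex differences of these genes went both ways, from -1.39 to 2.71 on the log2 scale. The median log2 difference, male minus female IH, was 0.01, with 73 of the 149 genes lower in males, against 47.7% of tested genes. In the edgeR test 0 of the 149 genes differed at an FDR below 0.05, against 0.0156% of tested genes lower and 0.0311% higher in males, and DESeq2 called 0, against 0.109%. At an unadjusted p below 0.05, 10 were lower and 5 higher in males, 15 in all against 5.66% of tested genes. The smallest p was that of ENSRNOG00000051867, with a difference of -1.39 (SE 0.36, edgeR adjusted p = 0.780), for which every male IH library was below every female IH library.

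A pair of genes stood out by a single replicate number in males. In male IH, 1 of them was at 82.5, 8.94 and 2.61 CPM and the other at 79.5, 15.7 and 10.6 CPM, and female IH libraries held 2.88 to 7.57 CPM and 4.83 to 11.9 CPM. Replicate 1 was also the highest in male IH LPS, at 34.7 and 24.8 CPM. With LPS in IH they had log2 fold changes of -1.03 (SE 0.80, edgeR adjusted p = 0.551) and -0.86 (SE 0.49, edgeR adjusted p = 0.371). They were chosen for description after their values were seen.

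The limit of the group was not a gap in the data. By the weaker of the male and female values, the 3 genes nearest inside the threshold were at -0.8002, -0.8004 and -0.8010, and the 3 nearest outside were at -0.7942, -0.7938 and -0.7928. In males 219 genes were at or under the threshold and in females 519, while 248 genes rose by at least 0.8 in both sexes by the same formula. Without male Nx LPS replicate 2, the library with 124 CPM of Cxcl10, 275 genes met the rule. Without male Nx LPS replicate 3 there were 92, and without male Nx replicate 2 there were 224.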

How the data were processed

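The authors aligned stranded RNA-seq reads to rn6 with TopHat 2.1 and counted them per Ensembl gene with HTSeq, and the deposited files hold raw counts, 1 file per library (24 libraries, 6624453 to 8548714 gene counts). The 5 HTSeq summary rows were left out, of which reads outside genes made up 14.7 to 21.2% of all entries. The 149 genes and the identifiers printed were chosen with earlier results of these data known. The rule printed the 2 smallest p and the 2 weakest fold changes in IH.

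Genes with CPM above 1 in at least 3 of 24 libraries (12860) were tested with edgeR 4.0.16 (R 4.3.3), using TMM, glmQLFit and glmQLFTest with 1 mean per group, on the 12 IH libraries. P-values were adjusted by Benjamini-Hochberg over all tested genes, at an FDR of 0.05. P-values set each difference against the spread between biological replicates. The paper does not state the litters of the sequenced pups. Tested on simulated data, 78.5% of 200 genes lowered by 1 log2 unit were recovered among 12860, with 4 false calls. Alternatives were other size factors, filters and thresholds, likelihood ratio tests, DESeq2 1.42.0, a replicate block and leaving out each library. Descriptive values without male IH LPS replicate 3 were added after seeing the data. No 2 replicates agreed within sampling noise (chi-square per degree of freedom 8.33 to 62.7).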

Additional observations from a re-analysis of the deposited data

How the results depend on the processing

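In males, where 2 genes fell in IH, the count was 5 of 8 over all genes without the filter on low counts, 15 of 29 with a likelihood ratio test, 17 of 27 with DESeq2 and 1 of 1 in a fit to the 6 male IH libraries alone. In females, where 26 fell, it was 53 of 169 with the likelihood ratio test and 53 of 177 with DESeq2. With the sexes pooled, 66 of 200 became 90 of 380 and 91 of 384 under those tests. A threshold of -1 left 61 LPS-lowered genes, of which 34 fell in IH with the sexes pooled and 16 in females, of 200 and 56 over all tested genes. Leaving out 1 library at a time gave 28 to 113 genes pooled, 0 to 44 in males, 3 to 60 in females, 60 to 698 over all genes and 92 to 275 genes chosen. Of the 149 genes, 0 had a sex difference in vehicle or in the LPS effect with any library left out, while 5 to 9 of all tested genes differed by sex in vehicle. ENSRNOG00000032922 turned to 0.00042 with RLE size factors and to 0.00042 with DESeq2, and ranged from -0.0924 to 0.111 with 1 library left out, and ENSRNOG00000051867 from -0.222 to 0.0656. With the sexes pooled, the other named genes kept direction and call, ENSRNOG00000002089 between -1.39 and -1.21 and ENSRNOG00000017579 between -0.91 and -0.80. Choosing the genes without male Nx LPS replicate 2, an alternative added after seeing the data, gave 84 of 275 pooled, 2 in males and 31 in females, where 200, 3 and 56 of all tested genes were called lower.

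Replicate numbers are shared across groups without a stated pairing. Deviations of same-numbered libraries correlated between -0.30 and 0.37 over 18 pairs, 9 of them above 0.1, and 6 of 12 libraries correlated best with their own number. With a replicate block, 70 genes fell pooled, 3 in males and 26 in females, of 232, 4 and 52 over all tested genes. Genes at 1 or 2 CPM rest on fewer than 20 counts per library, and groups of 3 limit what each sex alone can show.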

Other observations

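Replicate numbers showed some order among the LPS-lowered genes in females. The same replicate number was the highest library in all 4 female groups for 12 of the 149 genes (8.05%), 9 of them with number 2, against 1.99% of the 9490 genes with at least 5 CPM in both Nx groups. In males this held for 5 of the 149 genes (3.36%), against 4.85%. No test was made of these shares.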
